A study of Mus musculus with 7 samples.

Results

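The genes described here encode splicing factors and heterogeneous nuclear ribonucleoproteins (hnRNPs), the proteins that recognise introns in pre-mRNA and assemble the machine that removes them. They were chosen by symbol, as every gene of the deposited exon table whose mouse symbol starts with Srsf, Hnrnp, Snrp, Snrnp, Sf3, Prpf, Lsm, U2af, Rbm or Puf. There were 108 such genes among the 5214 listed. Hnrnpa3, with 0.91 in erythroblasts and 0.94 in progenitors, was below the minimum of 1 in at least 1 stage, which left 107 of 5194 genes. A further 30 protein-coding symbols of the same form in the RefSeq mouse annotation had no listed exon and were not analysed here.

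The data came from fetal livers of mice at embryonic stage E13.5, all carrying Klf1 fused to a hemagglutinin tag, a short peptide by which an antibody can pull down the Klf1 product EKLF, a zinc finger transcription factor of red cells. Erythroblasts were sorted as Ter119+CD71+ cells, and progenitors as the Ter119-CD71- and Ter119-CD71+ cells before them. Ter119 marks maturing red cells, and CD71 is the transferrin receptor. The 7 samples were 2 chromatin immunoprecipitation (ChIP-seq) libraries against the tag, 1 of each stage, 2 matching inputs, and RNA sequencing libraries of which 2 were labelled erythroblast and 1 progenitor. No group was treated, and both stages carried the tagged allele, so no untagged control entered the comparison. The expression table held 1 column of coverage signal per stage, and the peak tables held 1 list per stage, so no difference between stages has a replicate check and no p-value is given.

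Coverage was listed for single coding exons, and the exons of a gene were summed. The summed signal was 333353 in erythroblasts and 312559 in progenitors over all exons, and reads per library are unknown. Only exons at or above 0.8 in both stages were listed, so a gene silent in either stage was not analysed here. Because exon length had not been divided out, levels are compared for 1 gene between stages. A sum set beside that of other genes says only how much signal the table lists for it, which also grows with exon length and number, and is no expression level. Of the erythroid markers examined 6 of 7 were listed, and of the megakaryocyte markers 1 of 4 was listed, Gp1ba, with 31.6 in erythroblasts and 9.35 in progenitors on 1 exon (log2 difference 1.66). The part of such cells in the values of splicing genes was not tested. None of the markers of hepatocytes (6), macrophages (5), granulocytes and mast cells (4), B cells (4) or endothelial and stromal cells (5) was listed, which says only that no coding exon of theirs reached 0.8 in both stages.

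Introns are recognised by small nuclear ribonucleoproteins (snRNPs), particles of a small RNA and proteins. U1 binds the start of the intron and U2 the branch site, and a tri-snRNP of U4, U5 and U6 then joins and is remodelled into the catalytic spliceosome. SR proteins and hnRNPs bind the pre-mRNA itself and favour or block the use of nearby splice sites, and a separate minor spliceosome removes a rare class of introns. Red cell precursors are known to switch the splicing of many transcripts as they mature, among them that of the membrane skeleton protein 4.1.

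As a class, splicing genes were split between the stages, and individual genes differed strongly in both directions. A gene is said to have risen or fallen where log2((erythroblasts + 1) / (progenitors + 1)) was at least 1 in size, a fixed 2-fold rule. By it 17 of 107 splicing genes rose (15.9%) and 14 fell (13.1%), while of all 5194 genes 15.3% rose and 13.2% fell. The shares of splicing genes were therefore near those of all genes. The median log2 difference was -0.01 for splicing genes and 0.03 for all genes, with 53 splicing genes above 0 and 54 below it. The values ran between -2.91 for Rbm10 and 2.30 for Snrnp25. Fewer cells of a type and less RNA per cell cannot be told apart in such sorted populations.

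**Figure D1:**
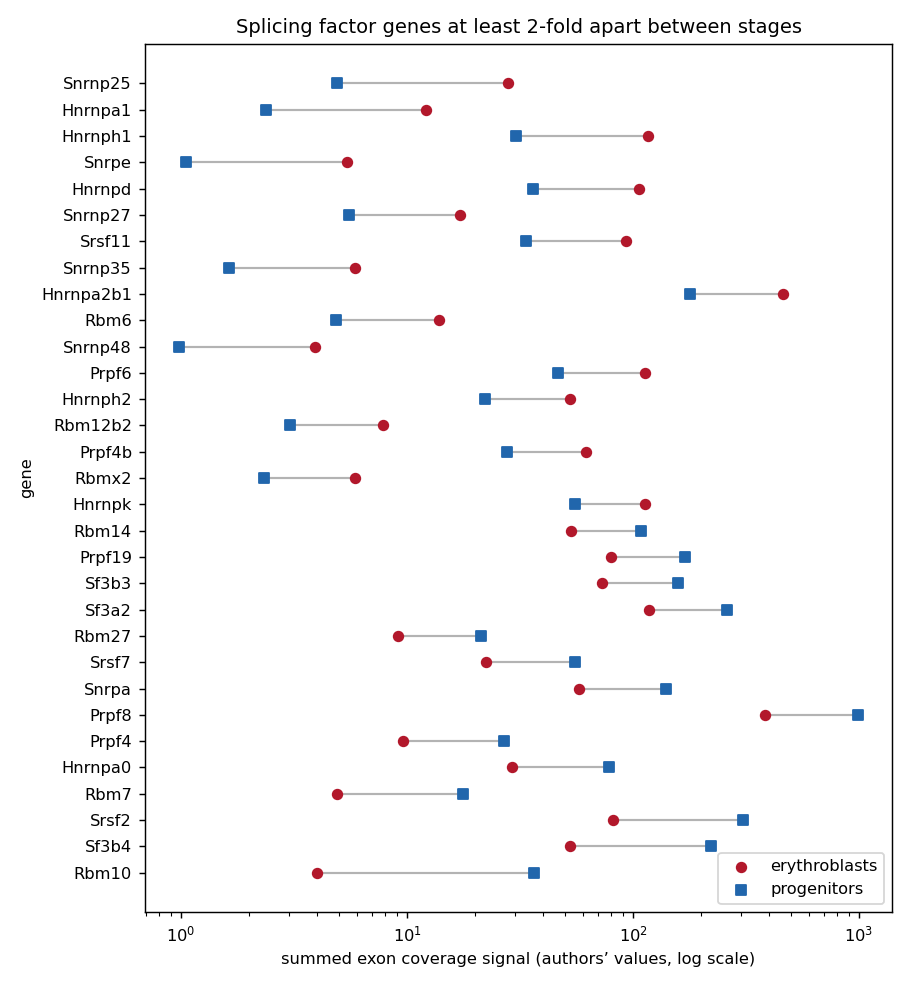
Summed exon coverage signal (authors' values, log axis) of the 31 splicing genes at least 2-fold apart, with erythroblasts as circles and progenitors as squares, ordered by log2 difference. Snrnp25 leads the 17 genes that were higher in erythroblasts, and Rbm10 has the widest gap among the 14 that were lower.

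The hnRNPs held the most genes that rose of any role. Of 18 hnRNP genes 6 rose (33.3%, against 15.3% of all genes), 1 fell (5.56%, against 13.2%) and 11 did neither. Their median log2 difference was 0.43. Hnrnpa2b1, whose product binds RNA in the nucleus and takes part in mRNA transport, had 459 in erythroblasts and 179 in progenitors, a log2 difference of 1.35, and all 9 of its listed exons (starts within chr6:51413431-51417184, build mm9) were higher in erythroblasts. Its exons differed unequally. The exon starting at 51414427 had 114 in erythroblasts and 14.7 in progenitors, whereas that starting at 51416141 had 55.0 in erythroblasts and 42.7 in progenitors. The transcript listed with 8 exons, which lacks the first of these values, had 346 in erythroblasts and 165 in progenitors, and its log2 difference of 1.06 was still past the rule.

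Hnrnph1, which binds runs of G in pre-mRNA, had 116 in erythroblasts and 30.2 in progenitors (log2 difference 1.91), and its 9 exons ran between 1.35 and 2.88 on the log2 scale. Its close relative Hnrnph2, an X-linked gene, had 52.8 in erythroblasts and 22.1 in progenitors on a single listed exon (1.22). The third gene of that family, Hnrnpf, went the other way by a smaller amount, with 362 in erythroblasts and 579 in progenitors on 1 exon, and its log2 difference of -0.68 was under the rule. Reads shared by these related genes could be split between them by the authors' counting, which is not described in the sources used here.

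Hnrnpd, also known as AUF1, which binds AU-rich elements and promotes mRNA decay, had 106 in erythroblasts and 36.3 in progenitors, a log2 difference of 1.52 with 8 of 8 exons higher. The 4 transcripts of it that were listed gave log2 differences between 1.48 and 1.60. Hnrnpa1, which antagonises SR proteins at many exons and has many processed pseudogenes that could share its reads, had 12.2 in erythroblasts and 2.38 in progenitors (1.96), on only 1 listed exon. Hnrnpk, which binds C-rich RNA, had 112 in erythroblasts and 55.2 in progenitors, and at 1.01 it lay just inside the rule with 4 of 4 exons higher; it was under it after each of 3 scalings of the columns (0.97 to 0.99). The hnRNP that fell was Hnrnpa0, with 29.0 in erythroblasts and 78.1 in progenitors on 1 exon (-1.40). The hnRNP gene with the highest sum, Hnrnpul1, had 568 in erythroblasts and 638 in progenitors (-0.17), and 11 of its 15 exons were higher in erythroblasts; its second listed transcript, with 7 exons, had 102 in erythroblasts and 72.9 in progenitors (0.48). The summed value of Hnrnpul1 thus depended on which transcript was counted.

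Among the SR proteins, Srsf2 and Srsf7 were lower in erythroblasts and Srsf11 was higher. Of 10 SR genes 1 rose (10%, against 15.3% of all genes), 2 fell (20%, against 13.2%) and 7 did neither. Their median log2 difference was -0.17. Srsf2, which binds exonic enhancers and helps define splice sites, had 81.8 in erythroblasts and 306 in progenitors, a log2 difference of -1.89. Both of its listed exons fell by similar amounts, with 54.7 in erythroblasts and 196 in progenitors for the exon starting at chr11 position 116713342, and 27.1 in erythroblasts and 110 in progenitors for that at 116713882. Srsf7, a related SR protein with a zinc knuckle, had 22.4 in erythroblasts and 55.1 in progenitors (-1.26), with 5 of 6 exons lower, and without its largest exon it was at -0.88, under the rule.

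Srsf11, an SR-related protein, was the SR gene that rose, with 93.6 in erythroblasts and 33.4 in progenitors (1.46) and 9 of 9 exons higher, and the median of its exon ratios was 0.95. The other SR genes were under the rule. Srsf6 had 115 in erythroblasts and 159 in progenitors (-0.46), and all 6 of its exons were lower in erythroblasts. Srsf3 had 11.4 in erythroblasts and 11.3 in progenitors on 1 exon (0.01).

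In both Srsf5 and Srsf1 the exons disagreed. Srsf5 had 68.8 in erythroblasts and 107 in progenitors (-0.63), yet 3 of its 4 exons were higher in erythroblasts. The last listed exon carried the difference, with 25.7 in erythroblasts and 73.9 in progenitors, while the first had 24.7 in erythroblasts and 18.8 in progenitors. Srsf1, the founding SR protein, had 76.6 in erythroblasts and 63.9 in progenitors (0.26). Its 2 upstream exons were lower in erythroblasts, the first with 14.2 in erythroblasts and 25.2 in progenitors, and its 2 downstream exons were higher, the last with 46.8 in erythroblasts and 24.5 in progenitors. The Srsf1 transcript listed with 3 exons, without that last one, had 30.1 in erythroblasts and 39.5 in progenitors (-0.38), the opposite sign.

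**Figure D2:**
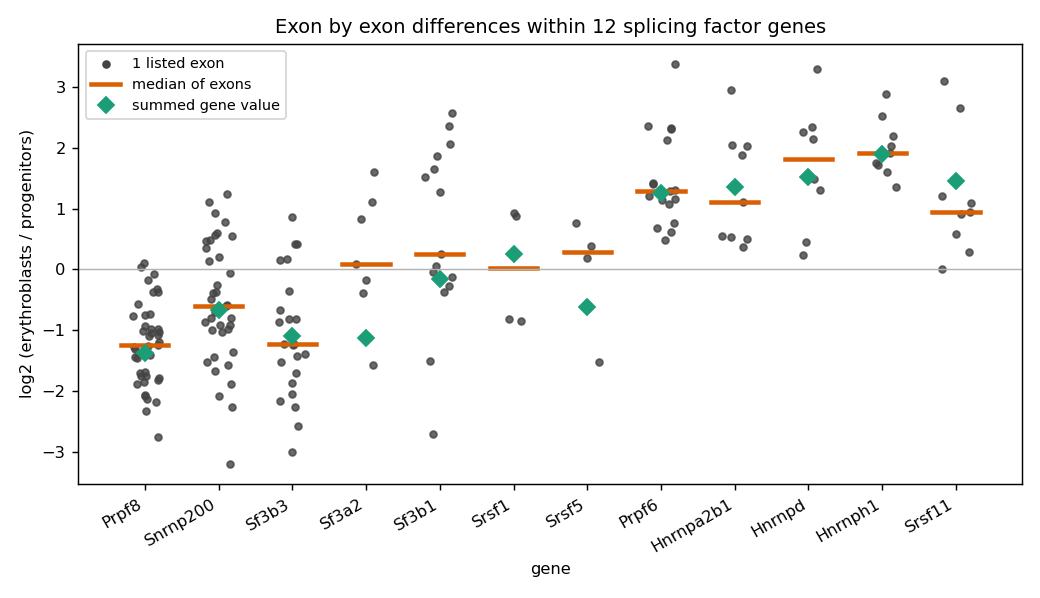
Log2 of erythroblast over progenitor signal for each listed exon of 12 genes, chosen after their values were seen, with the median of the exons (bar) and the log2 difference of the summed gene (diamond, with 1 added to each sum). The 41 Prpf8 exons lie nearly all below 0 and the 17 Prpf6 exons all above it, whereas the exons of Sf3b1, Srsf1 and Srsf5 lie on both sides.

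The Sm proteins form the ring common to the U1, U2, U4 and U5 particles. Of 6 Sm genes 1 rose (16.7%, against 15.3% of all genes) and none fell, 4 lay above 0 and 2 below, and the median log2 difference was 0.69. Snrpe rose, with 5.44 in erythroblasts and 1.05 in progenitors on 1 exon (1.65). Snrpd2 had 99.4 in erythroblasts and 53.1 in progenitors (0.89), just outside the rule. Snrpd3 had 38.7 in erythroblasts and 46.1 in progenitors (-0.25), and Snrpb had 32.5 in erythroblasts and 45.9 in progenitors (-0.48).

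By the symbol rule 3 genes for proteins particular to the U11/U12 particle of the minor spliceosome were listed, and all 3 rose. Snrnp25 had 28.1 in erythroblasts and 4.88 in progenitors, a log2 difference of 2.30, the largest rise among the 107 splicing genes, with 3 of 3 exons higher. Snrnp35 had 5.86 in erythroblasts and 1.63 in progenitors (1.38), and Snrnp48 had 3.91 in erythroblasts and 0.977 in progenitors (1.31), each on 1 exon near the minimum of the table. Outside the symbol rule, 2 further minor spliceosome genes rose, again on 1 exon each. Zrsr1, a retrogene related to the protein that recognises the end of minor introns, had 23.7 in erythroblasts and 0.851 in progenitors (3.74), and Zcrb1 had 7.96 in erythroblasts and 0.882 in progenitors (2.25). Pdcd7, another U11/U12 protein, had 2.01 in erythroblasts and 2.29 in progenitors (-0.13). Of the 6 listed minor spliceosome genes 5 therefore rose and none fell (15.3% and 13.2% of all genes did), among 8 looked for. These 8 were put together outside the planned role groups. Of the 5 that rose, 4 had 1 listed exon and a progenitor value under 2. Snrnp48, Zrsr1 and Zcrb1 were under 1 in progenitors, so they met the minimum of 1 through erythroblasts alone. Such genes could not have been called as fallen, so the count of 5 is a description only. With a pseudocount of 5 in place of 1, Snrnp35 was at 0.71 and Snrnp48 at 0.58, both under the rule, as was Snrpe at 0.79.

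Snrnp25 lies beside the alpha-globin genes on chromosome 11. Its listed exons start at chr11:32107557-32108685 (mm9), and the first listed alpha-globin exon is 75.6 kb further along. Hba-a1/Hba-a2 had 4043 in erythroblasts and 159 in progenitors (4.66), and the listed genes between were Nprl3, with 46.2 in erythroblasts and 15.8 in progenitors (1.49), and Mpg, with 4.79 in erythroblasts and 2.63 in progenitors (0.67). All 4 of these listed genes were thus higher in erythroblasts, Mpg under the rule. Within 5 kb of the Snrnp25 exons the erythroblast list held 1 peak, at chr11:32104503-32105920, with an enrichment of 7.86 and rank 14141 of 19353. The progenitor list held none there. Further along, up to the globin genes, the erythroblast list held more peaks, the strongest at chr11:32195322-32200936 (45.4, rank 56). The progenitor list held a peak at chr11:32159282-32160499 (10.9, rank 198 of 7358). The promoter of Snrnp25 is shown because this gene rose most (RefSeq, GRCm38.p6, chr11:32205165-32205464, plus strand, 250 bases before to 50 after the start site). It holds no match to CCNCNCCC, the general form of the EKLF motif, on either strand, and 1 match to GATAAG, the GATA factor motif.
Snrnp25: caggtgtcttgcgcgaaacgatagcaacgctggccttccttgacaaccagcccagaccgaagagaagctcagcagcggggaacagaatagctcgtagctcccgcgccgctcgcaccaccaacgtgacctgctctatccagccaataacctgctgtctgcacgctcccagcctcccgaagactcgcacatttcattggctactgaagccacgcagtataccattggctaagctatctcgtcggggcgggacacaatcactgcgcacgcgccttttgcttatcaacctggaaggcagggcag

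The genes for U1 and U2 proteins and for recognition of the end of the intron gave no rise. Of 19 genes 4 fell (21.1%, against 13.2% of all genes) and 15 did neither, while 15.3% of all genes rose. The median log2 difference of the 19 was -0.15. Sf3b4, a subunit of the U2 subcomplex SF3B, had 52.7 in erythroblasts and 220 in progenitors (-2.04), and all 4 of its exons were lower, by between 0.71 and 3.08 on the log2 scale. Snrpa, a U1 protein that binds a loop of the U1 RNA, had 57.8 in erythroblasts and 141 in progenitors (-1.27) with 4 of 4 exons lower. Sf3b3, another SF3B subunit, had 73.2 in erythroblasts and 157 in progenitors (-1.09) with 18 of 23 exons lower, and at -0.9995 without its largest exon it was just under the rule. Both genes overlap another protein-coding gene in the annotation, BC024978 at Snrpa and Cog4 at Sf3b3.

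Sf3a2, which binds U2 within the SF3A subcomplex, passed the rule on 1 exon. It had 118 in erythroblasts and 260 in progenitors (-1.13), but its last listed exon had 74.1 in erythroblasts and 221 in progenitors, and 4 of the other 6 exons were higher in erythroblasts. Without that exon its log2 difference was 0.16. Sf3b1, which clamps the branch site and is often mutated in myelodysplastic syndromes with ring sideroblasts, had 160 in erythroblasts and 178 in progenitors (-0.15). Its 15 exons ran between -2.71 and 2.57, with 9 higher and 6 lower. The 2 listed exons nearest its 3′ end were lower in erythroblasts, with 12.3 in erythroblasts against 35.1 in progenitors and 4.53 in erythroblasts against 29.5 in progenitors.

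Other genes of this group stayed under the rule. Sf3b2 had 254 in erythroblasts and 256 in progenitors (-0.01), Sf3a1 had 165 in erythroblasts and 256 in progenitors (-0.63), and Sf3a3 had 29.4 in erythroblasts and 29.7 in progenitors (-0.01). U2af1, which reads the AG at the end of the intron, had 6.95 in erythroblasts and 10.1 in progenitors (-0.48). SF3 subunits, which act in 1 particle, thus differed in their values between -2.04 for Sf3b4 and -0.01 for Sf3b2 and Sf3a3.

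Genes of the tri-snRNP and catalytic spliceosome passed the rule about as often as genes at large. Of 18 genes 3 rose and 3 fell (16.7% each, against 15.3% and 13.2% of all genes) and 12 did neither, with a median of -0.08. Prpf8, the U5 protein that cradles the catalytic centre, had 384 in erythroblasts and 994 in progenitors (-1.37), and 39 of its 41 exons were lower. Its partner Snrnp200, the helicase that unwinds U4 and U6, had 229 in erythroblasts and 364 in progenitors (-0.66), with 25 of 37 exons lower. Prpf6, which bridges U5 with U4/U6, went the other way, with 113 in erythroblasts and 46.4 in progenitors (1.26) and 17 of 17 exons higher. These are the genes with the most exons of their group, so their directions rest on many separate values, though exons of a gene share a library and are not replicates.

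Prpf4, a U4/U6 protein, had 9.61 in erythroblasts and 27.0 in progenitors (-1.40, 5 of 5 exons lower). Prpf19, the ubiquitin ligase of the complex that activates the spliceosome, had 79.8 in erythroblasts and 169 in progenitors (-1.08, 9 of 11 exons lower). Among the genes that rose, Snrnp27 had 17.2 in erythroblasts and 5.53 in progenitors (1.48), and the kinase Prpf4b, which phosphorylates tri-snRNP proteins, had 61.9 in erythroblasts and 27.8 in progenitors (1.13, 6 of 6 exons higher). By the median of their exon ratios, Prpf19 at -0.76 and Prpf4b at 0.69 were under the rule. Rbm8a, or Y14, a core protein of the exon junction complex laid down at spliced junctions, had 26.1 in erythroblasts and 13.6 in progenitors (0.89), just outside the rule.

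**Figure D3:**
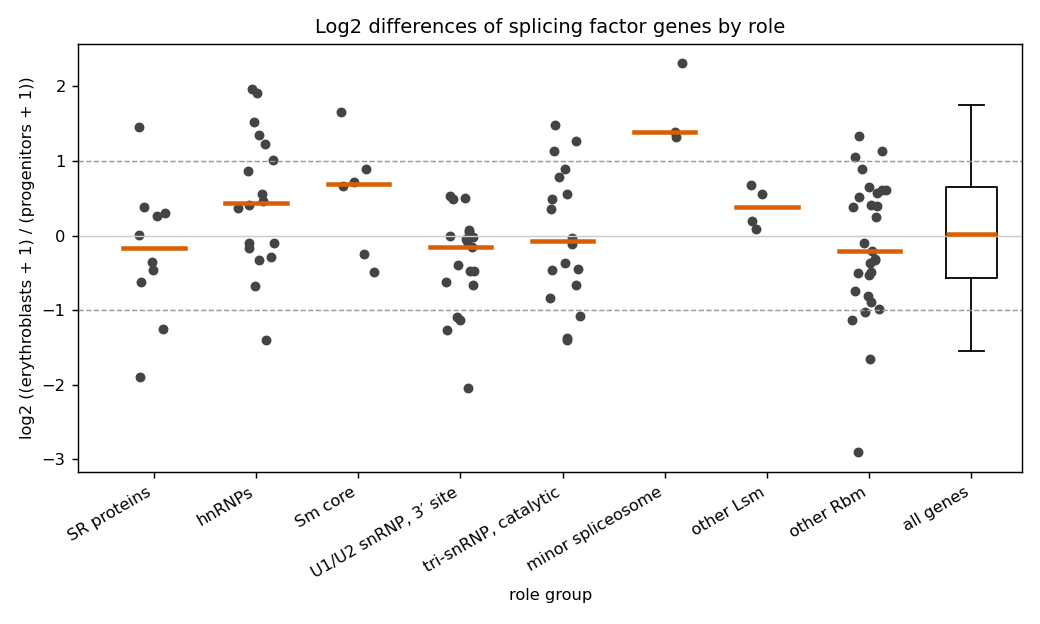
Log2 differences (erythroblasts over progenitors, 1 added to each) of the 107 splicing genes by role, 1 point per gene, with the group median as a bar; the box at the right gives the quartiles and the 5th to 95th percentiles of all 5194 genes. Dashed lines mark the 2-fold rule. Upwards it is passed by 6 of 18 hnRNPs, all 3 minor spliceosome genes and 15.3% of all genes, but no U1 and U2 gene.

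The remaining Rbm genes, a family named for an RNA-binding motif and of varied function, were split as well. Of 29 genes 3 rose (10.3%, against 15.3% of all genes), 4 fell (13.8%, against 13.2%) and 22 did neither, with a median of -0.21. Rbm10, a regulator of exon inclusion, had 4.01 in erythroblasts and 36.5 in progenitors, and its log2 difference of -2.91 was the largest fall of the 107 genes. All 3 of its listed exons were lower, the best covered with 2.08 in erythroblasts and 19.3 in progenitors. Its relative Rbm6 rose, with 13.8 in erythroblasts and 4.85 in progenitors (1.34) on 2 exons. The second listed Rbm6 transcript, with 1 exon, had 3.30 in erythroblasts and 1.62 in progenitors (0.72), under the rule.

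Rbm7, the RNA-binding subunit of a nuclear exosome targeting complex, had 4.92 in erythroblasts and 17.7 in progenitors (-1.66) on 1 exon. Rbm27 had 9.16 in erythroblasts and 21.3 in progenitors (-1.14, 5 of 5 exons lower), and Rbm14, a paraspeckle protein, had 52.9 in erythroblasts and 108 in progenitors (-1.02). Without their largest exon Rbm27 was at -0.91 and Rbm14 at -0.24, both under the rule. The 2 genes just outside the rule on this side were Rbm19, a ribosome biogenesis factor, at -0.99 and Rbm43 at -0.89. Rbm12b2 had 7.85 in erythroblasts and 3.03 in progenitors (1.13), and Rbmx2 had 5.89 in erythroblasts and 2.33 in progenitors (1.05), both on 1 exon, and with a pseudocount of 5 they were at 0.68 and 0.57, as Rbm6 was at 0.93.

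Rbm38, which promotes inclusion of an exon of the protein 4.1 transcript late in red cell maturation, had 125 in erythroblasts and 210 in progenitors (-0.75), with 4 of 4 exons lower. It stayed under the rule. Rbm15, a factor of mRNA methylation with a role in megakaryocytes, had 11.7 in erythroblasts and 7.31 in progenitors (0.61). Rbm25 had 176 in erythroblasts and 112 in progenitors (0.65), Rbm39 had 51.6 in erythroblasts and 34.4 in progenitors (0.57), and Rbmxl1, a retrocopy of Rbmx, had 104 in erythroblasts and 72.2 in progenitors (0.51). Of the 4 Lsm genes outside the spliceosome none passed the rule, against 28.5% of all genes. Their values lay between 0.09 for Lsm14b and 0.68 for Lsm14a, with Lsm12 at 0.20.

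The exons of a gene often differed in direction. Of 81 splicing genes with at least 2 listed exons 15 had every exon higher in erythroblasts, 14 had every exon lower and 52 had exons in both directions. All 10 multi-exon genes that rose had every exon higher, while 6 of the 12 multi-exon genes that fell had every exon lower. Over all genes of the table, every exon was higher in 91.4% of 561 multi-exon genes that rose and lower in 77.6% of 450 that fell. The multi-exon genes that fell had a median of 5 listed exons among splicing genes and 4 among all genes. The remaining 7 genes that rose and 2 that fell had 1 listed exon. Of the 31 genes past the rule, Srsf2, Rbm10, Hnrnpd, Hnrnpk, Snrpa, Sf3b3, Snrnp35, Rbm12b2 and Rbm14 overlap another protein-coding gene (Mfsd11 at Srsf2 and Ndufb11 at Rbm10), and whether counting used strand is not given, so reads of such partners may be among their values.

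EKLF peaks lay near splicing genes more often than near the genes of the table at large. A peak within 5 kb of the listed exons was found for 65 of 107 splicing genes in the erythroblast list (60.7%, Wilson 95% interval 51.3% to 69.5%) and for 46.5% of all genes. In the progenitor list it was found for 48 splicing genes (44.9%, 35.8% to 54.3%) and for 30.9% of all genes. These intervals cover counting error over genes only. Coverage moved with the peak share. Splicing genes had a median summed signal of both stages of 74.4 against 26.6 for all genes, and 4 listed exons against 3. Of the 75 splicing genes at or above the median of all genes in summed signal, 52 had an erythroblast peak (69.3%) and 36 a progenitor peak, while of all 2597 genes there 57.0% had an erythroblast peak and 37.8% a progenitor peak. Below that median an erythroblast peak lay at 40.6% of 32 splicing genes and 36.1% of all genes, and a progenitor peak at 37.5% of those splicing genes and 24.1% of all genes. The part of coverage in the peak shares was not tested further.

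**Figure D4:**
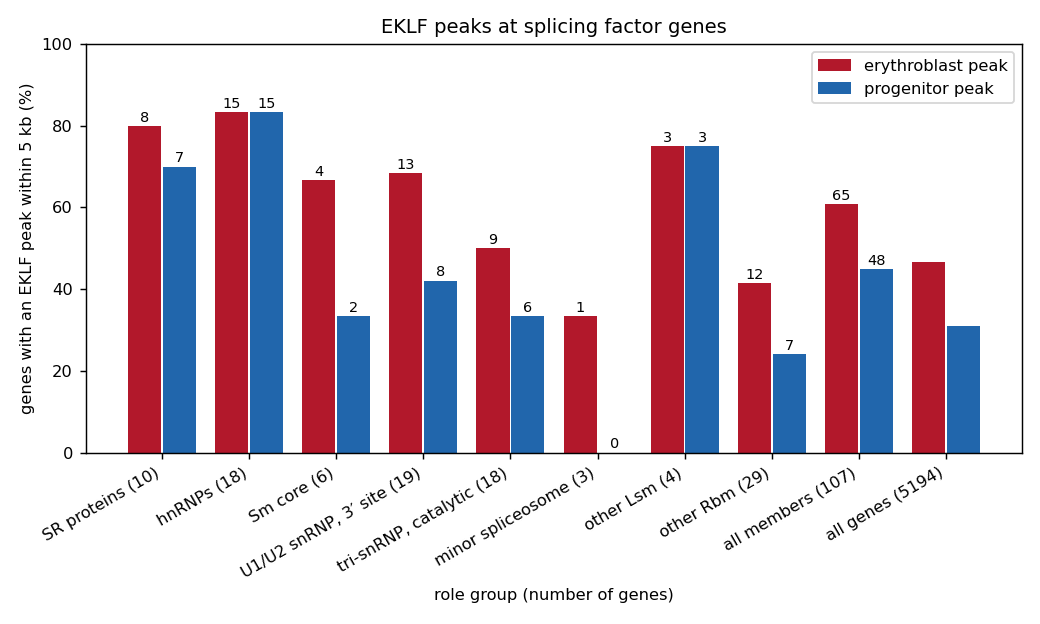
Share of genes with an EKLF peak within 5 kb of their listed exons in the erythroblast list (left bars) and the progenitor list (right bars), by role, with counts of genes above the bars and group sizes in parentheses. hnRNPs reach 83.3% in both lists, against 46.5% and 30.9% of all genes.

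Peaks of both lists lay at 41 splicing genes, against 27.1% of all genes, and an erythroblast peak alone at 24 (22.4%), against 19.4% of all genes. Within 1 kb the share with an erythroblast peak alone was 12.1%, against 13.8% of all genes. A progenitor peak alone was present at 7, against 3.79% of all genes, namely at Hnrnpf, Snrpa, Sf3a3, Snrnp27, Rbm7, Rbm8a and Rbm34. The remaining 35 had neither, against 49.7% of all genes. The Rbm7 peak of the progenitor list overlapped an erythroblast peak that lay outside its 5 kb window. The hnRNPs had peaks most often, 15 of 18 genes in each list. The SR genes had 8 and 7 of 10 in the erythroblast and progenitor lists and the Lsm genes outside the spliceosome 3 of 4 in each, whereas the other Rbm genes had 12 and 7 of 29.

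Peaks lay at genes of either direction and at those that did neither. An erythroblast peak lay at 9 of 17 genes that rose, at 9 of 14 that fell and at 47 of 76 that did neither. A progenitor peak lay at 8 of the genes that rose, at 8 of those that fell and at 32 of those that did neither. Of the 5 splicing genes with the highest erythroblast enrichment none rose and 2 fell (median log2 difference -0.75), and of the 10 highest 2 rose and 3 fell (-0.56). Of the 5 highest in the progenitor list 1 rose and 2 fell (-0.29), and of the 10 highest 2 rose and 2 fell (-0.12). Of all 5194 genes 15.3% rose and 13.2% fell, and no pattern is read from counts this small.

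Peaks at splicing genes had a higher median enrichment than each list as a whole. The erythroblast list held 73 peaks at splicing genes, with a median enrichment of 12.3 against 9.31 for the list and a range of 5.12 to 43.8, and 21 of them were among the highest-ranked 10% of the list. The progenitor list held 54, with a median enrichment of 7.90 against 7.03 for the list and a range of 4.36 to 20.9, and 18 were among its highest-ranked 10%. Enrichment is the authors' value for each peak and is compared within a list only. The peak centre lay within 1 kb of the 5′-most listed coding exon start for 36 of the 73 erythroblast peaks and 28 of the 54 progenitor peaks. Peaks covered that exon start of 36 splicing genes in the erythroblast list and of 28 in the progenitor list, and the median distance of the peak centre from it was -364 bp in the erythroblast list and -404 bp in the progenitor list, negative being upstream. Of the 73 erythroblast peaks 42 overlapped a progenitor peak (57.5%, against 30.9% of that whole list). Of the 54 progenitor peaks 43 overlapped an erythroblast peak (79.6%, against 80.9% of that whole list). The whole lists take in peaks at any distance from listed exons, and peaks near other listed genes were not compared. Whether these values are particular to splicing genes was therefore not tested.

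**Figure D5:**
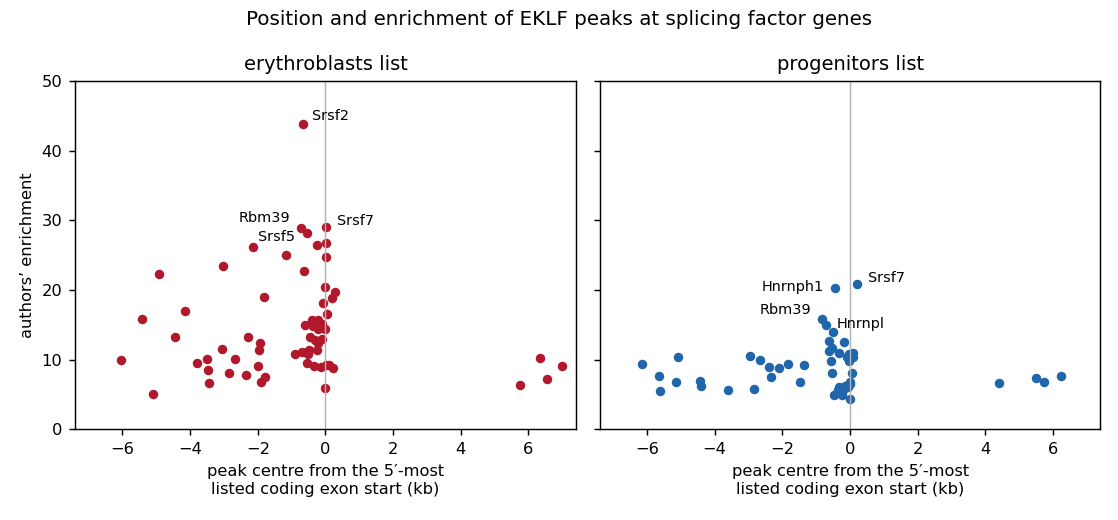
Authors' enrichment of each peak at a splicing gene against the distance of its centre to the 5′-most listed coding exon start (negative is upstream), for the erythroblast list (left, 64 peaks within 7 kb shown, 9 further away not shown) and the progenitor list (right, 49 shown, 5 not shown). Of the peaks at splicing genes 36 of 73 in the erythroblast list and 28 of 54 in the progenitor list have their centre within 1 kb, and the Srsf2 peak of erythroblasts stands highest at 43.8.

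The 2 highest erythroblast enrichments among splicing genes were at SR genes. In the erythroblast list the Srsf2 peak (mm9, chr11:116713003-116716101) had an enrichment of 43.8 and ranked 75 of 19353, and in the progenitor list the peak there had 13.9. The Srsf7 peak had 29.05 in the erythroblast list (chr17:80605428-80607591, rank 236), and with 20.9 in the progenitor list (chr17:80605013-80607613) it was the strongest there among splicing genes. Srsf2 and Srsf7 were the SR genes that fell, and both carried peaks in both stages. So did 7 of the 10 SR genes in all, among them Srsf11, the SR gene that rose. The peak at Srsf5 had 28.1 in the erythroblast list (chr12:82046025-82048073) and overlapped no peak of the progenitor list.

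Rbm39, which acts with U2AF, had an erythroblast peak of 28.9 (chr2:156004491-156006775) and a progenitor peak of 15.8. Rbm38 had 4 erythroblast peaks, the strongest with 26.7 over its first listed exon (chr2:172846445-172848644), and 2 progenitor peaks, the stronger with 9.74. Hnrnph1 stood out in the progenitor list, with an enrichment of 20.3 and rank 65 of 7358 (chr11:50189768-50193013), and its erythroblast peak had an enrichment of 9.46 and rank 982 of 19353 by −log10 p. Hnrnpl, which binds CA repeats, had 15.0 in the progenitor list.

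The promoters of the 5 genes with the strongest erythroblast peaks are shown so that the sequence at their starts can be read beside these values. They are from RefSeq (GRCm38.p6), 250 bases before to 50 after the start site, and capitals mark CCNCNCCC on either strand, merged where matches overlap. The matches number 3 in Srsf2 (chr11:116853045-116853344, minus strand), 2 in Srsf7 (chr17:80207256-80207555, minus strand), none and 3 in the 2 promoters of Rbm39 (chr2:156180189-156180488 and chr2:156179531-156179830, minus strand), 1 in Srsf5 (chr12:80945249-80945548, plus strand) and 2 in Rbm38 (chr2:173021652-173021951, plus strand). The peaks are in mm9, so the place of a motif within a peak was not measured.
Srsf2: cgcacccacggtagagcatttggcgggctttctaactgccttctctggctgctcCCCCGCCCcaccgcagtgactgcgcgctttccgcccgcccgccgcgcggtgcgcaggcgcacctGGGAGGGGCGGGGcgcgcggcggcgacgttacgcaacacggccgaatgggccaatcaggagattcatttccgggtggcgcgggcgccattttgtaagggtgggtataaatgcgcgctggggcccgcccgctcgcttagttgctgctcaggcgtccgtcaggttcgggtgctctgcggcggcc
Srsf7: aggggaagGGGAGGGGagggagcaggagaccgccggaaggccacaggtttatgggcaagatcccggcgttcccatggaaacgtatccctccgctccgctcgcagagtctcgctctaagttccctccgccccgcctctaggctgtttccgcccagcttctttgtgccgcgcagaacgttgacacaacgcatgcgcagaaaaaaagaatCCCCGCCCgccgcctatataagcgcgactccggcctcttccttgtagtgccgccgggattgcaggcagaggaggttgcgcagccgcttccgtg
Rbm39 at 156180189: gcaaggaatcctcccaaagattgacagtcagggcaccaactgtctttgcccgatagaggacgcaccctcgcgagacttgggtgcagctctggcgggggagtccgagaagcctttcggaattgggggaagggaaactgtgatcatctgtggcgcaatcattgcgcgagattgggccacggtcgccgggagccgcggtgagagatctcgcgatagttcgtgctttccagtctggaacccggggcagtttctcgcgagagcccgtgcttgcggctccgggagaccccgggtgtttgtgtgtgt
Rbm39 at 156179531: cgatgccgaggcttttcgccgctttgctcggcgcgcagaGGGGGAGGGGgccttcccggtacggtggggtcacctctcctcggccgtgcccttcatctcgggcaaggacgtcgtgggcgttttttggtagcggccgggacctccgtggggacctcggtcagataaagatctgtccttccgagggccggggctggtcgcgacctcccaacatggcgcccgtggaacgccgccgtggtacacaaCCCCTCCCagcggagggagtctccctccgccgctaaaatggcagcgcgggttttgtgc
Srsf5: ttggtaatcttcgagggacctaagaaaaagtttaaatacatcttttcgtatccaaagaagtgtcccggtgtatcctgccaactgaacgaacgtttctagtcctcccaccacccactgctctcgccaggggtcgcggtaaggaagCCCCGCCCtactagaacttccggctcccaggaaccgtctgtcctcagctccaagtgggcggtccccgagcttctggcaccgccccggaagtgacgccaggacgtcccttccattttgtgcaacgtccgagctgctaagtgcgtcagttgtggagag
Rbm38: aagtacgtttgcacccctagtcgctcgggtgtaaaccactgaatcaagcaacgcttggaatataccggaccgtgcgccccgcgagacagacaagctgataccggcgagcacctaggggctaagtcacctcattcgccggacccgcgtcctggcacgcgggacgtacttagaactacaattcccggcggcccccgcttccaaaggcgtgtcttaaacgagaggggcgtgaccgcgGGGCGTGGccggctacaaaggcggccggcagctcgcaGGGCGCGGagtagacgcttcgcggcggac

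Of 107 splicing genes 90 had a RefSeq promoter entry, 114 promoters in all, and 63.2% of these held CCNCNCCC on either strand, against 68.7% for the promoters of listed genes and 49.5% of all 32851 promoters. Promoters of splicing genes with an erythroblast peak held it in 60.9% of cases, and those of splicing genes with no peak in either list in 70.0%. The narrower CCACACCC was in 3.51% of splicing gene promoters, 3.54% of those of listed genes and 3.56% of all. GATAAG was in 4.39% of splicing gene promoters, 5.20% of those of listed genes and 7.44% of all. A motif match is a description of the letters and no evidence of binding.

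Splicing genes outside the symbol rule leaned slightly to progenitors. Of 105 such genes looked for, 89 were listed, 7 rose (7.87%) and 13 fell (14.6%), against 15.3% and 13.2% of all genes, and their median log2 difference was -0.17. The genes that rose beside Zrsr1 and Zcrb1 were Tardbp, the RNA-binding protein TDP-43, with 15.2 in erythroblasts and 4.28 in progenitors (1.61), and Wbp4 (1.35), Crnkl1 (1.22), Syf2 (1.14) and Slu7 (1.06), all of them spliceosome proteins. Of the genes for SMN-mediated snRNP assembly, 5 of 8 listed fell and none rose, against 13.2% and 15.3% of all genes. This subset was formed after the values were seen, so its count is a description only. Gemin7 (0.64), Gemin2 (-0.05) and Clns1a (-0.06) did neither. Gemin4 had 4.66 in erythroblasts and 45.0 in progenitors (-3.02) on 1 exon. Prmt5, which methylates Sm proteins, had 19.4 in erythroblasts and 63.8 in progenitors (-1.67). Gemin5 (-1.38), Smn1 (-1.31, on 1 exon) and Wdr77 (-1.22, on 2 exons) followed. With a pseudocount of 5 Smn1 was at -0.72 and Wdr77 at -0.62, under the rule. Crnkl1, Slu7 and Syf2 were then under it too, which left 4 of the 89 genes that rose, against 9.88% of all genes.

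Ptbp1, the polypyrimidine tract repressor of splicing, had 278 in erythroblasts and 649 in progenitors (-1.22), with 10 of 11 exons lower. Snu13, a U4 snRNA-binding protein, had 28.02 in erythroblasts and 114 in progenitors (-1.99) on 1 exon. Eif4a3, the RNA helicase of the exon junction complex, had 36.4 in erythroblasts and 103 in progenitors (-1.47), and its partner Rnps1 was at -1.34, or -0.30 without its largest exon. Cherp (-1.46), the RNA-stabilising protein gene Elavl1 (-1.29), the SR protein kinase gene Srpk1 (-1.23) and Bud13 (-1.14) also fell, Bud13 no longer so with a pseudocount of 5. Of the others with the highest sums, Srrm2, a large scaffold of the spliceosome, had 742 in erythroblasts and 1304 in progenitors (-0.81), and Ewsr1 had 379 in erythroblasts and 497 in progenitors (-0.39).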

How the data were processed

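Sorted fetal liver erythroblasts and progenitors were profiled by EKLF ChIP-seq, input and RNA sequencing. Build mm9 is named in the submitters' processing notes. No aligner, caller of peaks or counter of reads is named there. The exon table that the authors deposited carries RPKM in its name, but its values are whole multiples of 1 step per column (100% within 0.01), so they are read as the authors' coverage signal per coding exon with no length divided out. The deposited peak lists hold the authors' fold enrichment, read as a ratio, and their −log10 p for each peak, 1 list per stage. Whether the erythroblast column pools both libraries labelled erythroblast is not given, so values carry no SD or n.

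RefSeq transcripts (6772 of 6853 matched to a symbol in GRCm38.p6) were reduced to the 1 with most listed exons per gene, and its exons were summed. Genes with at least 1 in at least 1 stage entered, with a pseudocount of 1, which understates changes of low genes, and a 2-fold rule. Peaks were assigned to a gene within 5 kb of the span of its listed exon starts, and peaks overlapped by at least 1 bp. Of the 107 splicing genes 23 overlap another protein-coding gene, and whether strand was used in counting is not given. Named genes were those past 2-fold, the 3 with the highest sum per role, 11 set by name, the 2 nearest the rule on each side, those with the 5 highest enrichments per list and those with a progenitor peak alone; of the other splicing genes, those past 2-fold and the 3 with the highest sum. Members, lists and rules were chosen with earlier results of these data known. The steps were tested on simulated data. Python 3.11.15, pandas 2.3.3, numpy 2.4.6, scipy 1.17.1 and matplotlib 3.10.9 were used.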

Additional observations from a re-analysis of the deposited data

How the results depend on the processing

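With 1 column per stage, leaving out a replicate library could not be run. No paired analysis was possible because the values carry no replicate numbers and no test was made. Counts past the rule moved as follows. With a pseudocount of 5, 10 splicing genes rose (9.88% of all genes did), and 4 of the other splicing genes did, against 12 with a pseudocount of 0.1. Limited to genes with at least 2 listed exons, an alternative chosen after seeing the data, 10 splicing genes rose (15.4% of all such genes did). At 1.5-fold 28 splicing genes rose and 24 fell, and 20 and 21 of the other splicing genes (27.1% and 24.3% of all genes). At 3-fold 4 rose and 4 fell, and 3 and 3 of the others (6.64% and 4.76% of all genes). Without the exon of largest value 9 fell (12% of all genes did), and Sf3a2 turned to 0.16. By the median of exon ratios the median difference of splicing genes was 0.12, Sf3a2 turned to 0.0834, and 12 of the other splicing genes rose. Scaling both columns by the median ratio over genes, by quantiles or to equal totals without globin genes left 15 or 16 splicing genes that rose and 15 that fell.

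Of the 31 splicing genes past 2-fold 16 stayed past it under the alternatives that could be run for them. Of these, 4 (Hnrnpa0, Hnrnpa1, Hnrnph2 and Rbm7) had 1 listed exon, for which leaving out an exon was not possible. Srsf2 and Snrnp27, with 2 listed exons each, also kept all their exons, so leaving out the largest exon was no check on them. The 16 include Snrnp25, Hnrnph1, Hnrnpa2b1, Hnrnpd, Prpf6, Prpf8, Rbm10, Sf3b4 and Srsf2. Erythroblast peaks lay at 43 splicing genes within 1 kb (40.2%, against 30.8% of all genes), 101 within 50 kb (94.4% against 88.1%) and 30 among equal numbers of the highest-ranked peaks (28% against 14.3%). Progenitor peaks lay at 78 within 50 kb (72.9% against 70.1%) and 30 at or above the median enrichment (28% against 19.5%). An erythroblast peak alone lay at 13 within 1 kb (12.1% against 13.8%) and 5 among equal numbers of peaks (4.67% against 5.29%), so the share of splicing genes was below that of all genes in both. No other gene past the rule changed direction. The minimum of 0.8 in both stages limits what can be seen of genes low in either stage.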
